A study of Mus musculus with 2 samples.

Results

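The genes described are 50 protein-coding mouse genes of traffic between the endoplasmic reticulum (ER) and the Golgi apparatus, out of 21866 protein-coding genes in the annotation. The rule that lists them goes by name and function and uses no measured value, but the list was drawn up with earlier results of these data known. All 50 were found in the annotation. CHOP is a transcription factor of the C/EBP family that is made when protein folding in the ER fails. Its binding sites were read by ChIP-seq, with antibody B-3, from livers of WT mice treated with Tunicamycin (1 mg/kg body weight, I.P., 8 h). Tunicamycin blocks N-linked glycosylation and so disturbs folding in the ER. The chromatin came from 3 pooled mice and gave 1 immunoprecipitated library, represented by a list of 14157 peaks, and 1 input library from liver of the same genotype and treatment. The labels do not say whether the input set the background in peak calling. Replicates, untreated mice and mice lacking CHOP were not analysed here, so no value below speaks to variation between animals or to a change with treatment. Strain, sex and age are not stated in the labels, and a peak list cannot show which liver cells the chromatin came from.

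New secretory proteins leave the ER in vesicles wrapped in the COPII coat. Vesicles wrapped in the COPI coat carry escaped ER proteins and cargo receptors back from the Golgi. Receptors sort the cargo into the vesicles, small GTPases of the SAR1 and ARF families start coat assembly, and tethers and SNARE proteins make the vesicles dock and fuse. In hepatocytes this route carries albumin, clotting factors and lipoproteins, and several of its genes are known targets of the unfolded protein response.

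A promoter peak was taken as a peak whose summit, its highest point, lay within 1 kb (1000 bp) of a protein-coding start site of the gene. Of the 50 traffic genes, 28 had one (56.0%, 95% Wilson interval 42.3 to 68.8%), against 27.9% of all protein-coding genes (6100 of 21866). The interval treats the genes as independent draws, which the genes of a chosen list are not, and it is no test against 27.9%. Start sites rich in CpG dinucleotides had peaks more often than others across all genes, and most traffic genes have such starts. Among the 40 traffic genes with a CpG observed/expected ratio of 0.6 or more around the start, 25 had a promoter peak (62.5%), against 51.0% of all 10192 genes of that class. Among the 10 traffic genes of lower ratio, 3 had a promoter peak (Mia2, Copg1 and Lman1), against 7.71% of 11674 such genes. The ratio was taken at the outermost start site, whereas the peaks of Mia2 and Lman1 lie at start sites further inside. The part of base composition in the higher share was not tested.

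The roles differed in their counts. The COPII coat and its ER exit sites had 11 of 14 genes with a promoter peak (78.6%) and the COPI coat 5 of 9 (55.6%). The p24 cargo receptors had 3 of 7, the other cargo and KDEL receptors 3 of 7, the SNAREs 1 of 7, the tethers 2 of 2 and the ARF switches 3 of 4. These groups are small and were not tested against each other.

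**Figure D1:**
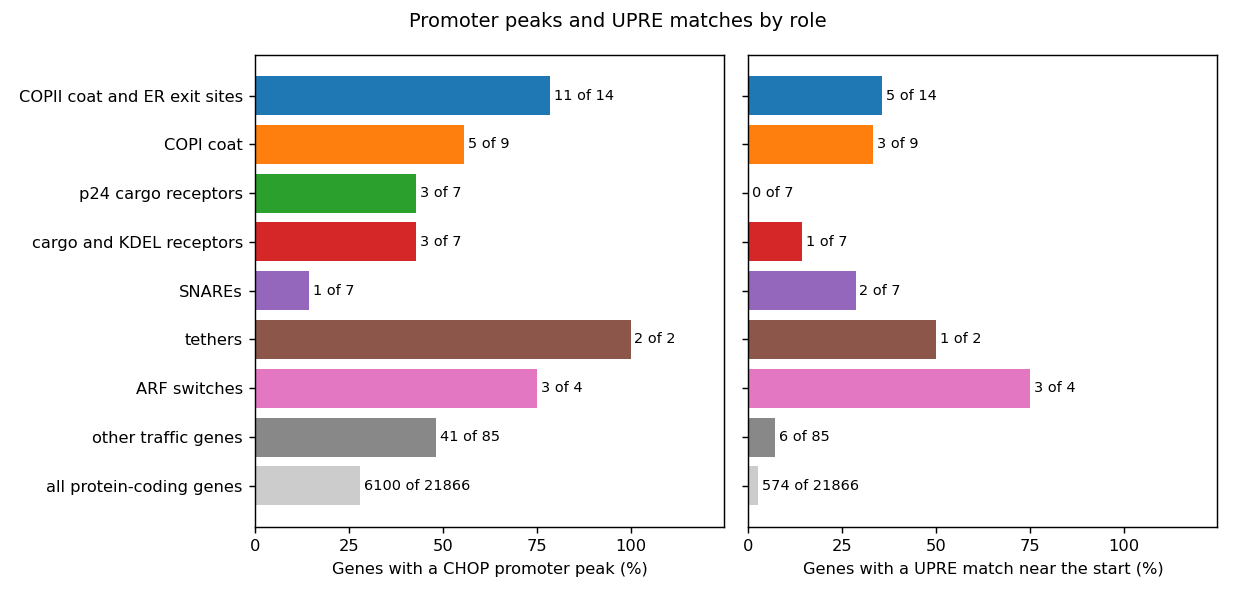
Share of genes with a CHOP promoter peak (left, percent) and with a match to the unfolded protein response element within 500 bp of the outermost start site (right, percent), for the roles of the 50 traffic genes, 85 other traffic genes and all protein-coding genes. COPII genes reach 78.6% and SNAREs 14.3% on the left, where all genes stand at 27.9%; on the right several roles stand well above the 2.63% of all genes.

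The peaks at traffic genes were of ordinary height. Fold enrichment is the authors' ratio of reads at the summit over the local background, and its interval is a 95% exact Poisson interval on the reads, which covers counting error only. The strongest promoter peak of each of the 28 genes had a median fold of 6.37, against 6.86 for the 6100 genes with a promoter peak, and the folds ran from 4.12 to 20.4. A fold of 20 or more was reached by 1 of the 28 (3.6%), against 4.9% of the 6100 genes. The summits held 6 to 45 reads with a median of 14, and 8 of the 28 held 10 or fewer. When peaks under a fold of 6.75, the median over all 14157, were left out, 12 of the 50 genes had a promoter peak, against 14.7% of all genes.

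**Figure D2:**
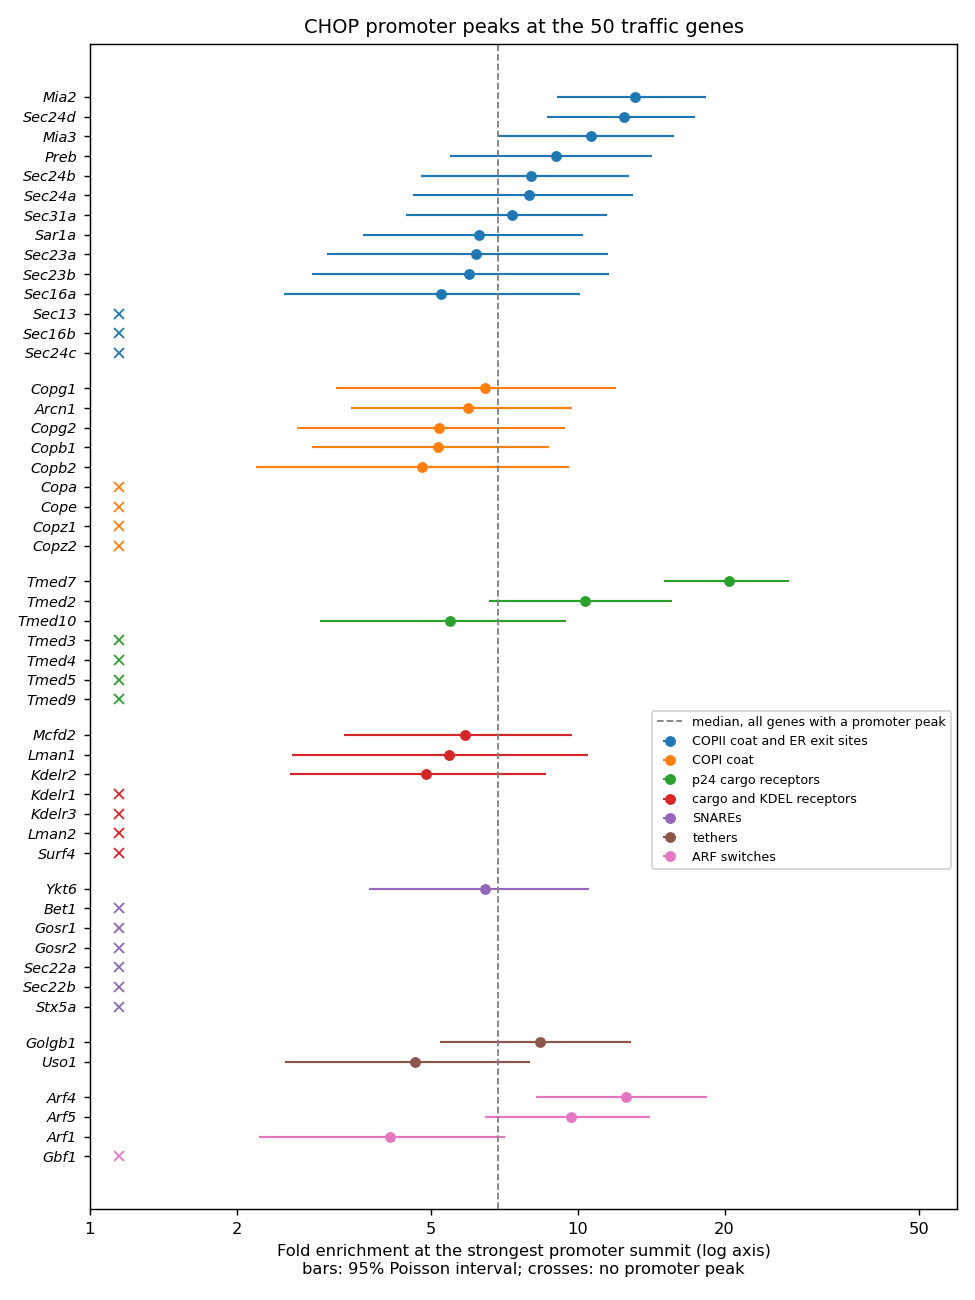
Fold enrichment at the strongest promoter summit of each traffic gene (log axis), with 95% exact Poisson intervals on the reads, grouped by role; crosses mark the 22 genes without a promoter peak. The intervals of Tmed7, Mia2, Arf4, Sec24d and Mia3 lie above the dashed median of 6.86 of all genes with a promoter peak, and those of all other genes with a peak include it.

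Among COPII genes, the exit-site receptors and a cargo adaptor led. Mia2, which encodes cTAGE5, and Mia3, which encodes TANGO1, make partner proteins that load bulky cargo at ER exit sites. At Mia2, chromosome 12 carried a peak between 59131180 and 59131930 (mm10) whose summit held 32 reads at 13.1-fold (9.09 to 18.3), 31 bp past a start site and within the 5′ UTR. It was the widest of the 28 at 751 bp and lay at an internal start site of the gene. Mia3 was marked by a peak on chromosome 1 from 183369302 to 183369728, of 10.6-fold (6.91 to 15.8, 23 reads) and 30 bp upstream of a start site, and by a second one of 5.53-fold at an internal start site. Both genes also had distal peaks, given further below.

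The inner COPII coat is made of SEC23 and of SEC24, whose forms pick different cargo. The Sec24d peak, chromosome 3 from 123267334 to 123267942, reached 12.5-fold (8.64 to 17.4, 32 reads) at a summit 12 bp past a start site, within the 5′ UTR. Sec24b followed with 8.01-fold (4.78 to 12.7, 16 reads) and Sec24a with 7.96-fold (4.59 to 13.0, 14 reads), so their intervals overlapped that of Sec24d. Sec24c had no peak, and the nearest summit lay 12806 bp away. Both SEC23 genes had weak peaks, with 6.19-fold on 8 reads at Sec23a and 6.0-fold on 7 reads at Sec23b, and their intervals overlapped almost fully (3.06 to 11.5 and 2.86 to 11.6).

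Sec31a, which builds the outer cage, had a 7.34-fold peak (4.45 to 11.5), whereas its partner Sec13 had none and its nearest summit was 43616 bp away. Preb encodes SEC12, the exchange factor that loads SAR1 with GTP, and its peak on chromosome 5, 30960092 to 30960435, had 9.04-fold (5.48 to 14.2, 17 reads), 11 bp upstream of a start site. Sar1a, the GTPase itself, had 6.29-fold (3.63 to 10.3). Sec16a, the scaffold of exit sites, had 5.24-fold on 7 reads, and its shorter relative Sec16b had no promoter peak. Of the 11 COPII genes with a promoter peak, all had folds between 5.24 and 13.1.

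The COPI coat had peaks at 5 of its 9 genes and all were weak. Copg1 and Copg2, the alternative gamma subunits, had 6.45-fold (3.19 to 12.0, 8 reads) and 5.2-fold (2.66 to 9.40, 9 reads), which overlap. Arcn1, the delta subunit, had 5.96-fold (3.44 to 9.72), Copb1, the beta subunit, 5.16-fold (2.86 to 8.72) and Copb2, the beta-prime subunit, 4.79-fold on 6 reads (2.19 to 9.62). No promoter peak was listed at Copa, Cope, Copz1 or Copz2, which make the alpha, epsilon and zeta subunits, and their nearest summits lay 20053 to 44675 bp away. The 5 COPI folds all stood under the median of 6.86 of genes with a promoter peak, but every interval included it.

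Tmed7 had the strongest promoter peak of all 50 genes. It belongs to the p24 family, small membrane proteins that cycle between ER and Golgi and help sort cargo. Its peak on chromosome 18, 46597002 to 46597676, had a fold of 20.4 (15 to 27.2, 45 reads) and ranked 281 among the 6100 genes with a promoter peak. The summit lay in a coding exon, 76 bp downstream of a start site, and it is also within 1 kb of a start site of Eif1a, a translation initiation factor gene, so position cannot assign the peak to either. Tmed2 had 10.4-fold (6.60 to 15.6, 21 reads) on chromosome 5, 124541022 to 124541420, beside a second peak of 6.46-fold, and its partner Tmed10 had 5.48-fold (2.97 to 9.45), 430 bp upstream of a start site. Tmed3, Tmed4, Tmed5 and Tmed9 had no promoter peak.

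The other cargo receptors and the KDEL receptors had low promoter peaks or none. Lman1 and Mcfd2 form the receptor that carries clotting factors V and VIII out of the ER, and they had 5.46-fold on 7 reads (2.60 to 10.5) and 5.87-fold on 13 reads (3.32 to 9.74). KDEL receptors return escaped chaperones from the Golgi. Of these Kdelr2 had a 4.88-fold peak (2.57 to 8.60, 10 reads), while Kdelr1 and Kdelr3 had none, with the nearest summits 84330 and 10531 bp away. Lman2, a lectin of the same route, and Surf4, a receptor for soluble cargo, had no promoter peak.

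Of the SNAREs, which drive fusion of vesicles with the Golgi, Ykt6 alone had a promoter peak, at 6.47-fold (3.73 to 10.6, 14 reads). Bet1, Gosr1, Gosr2, Sec22a, Sec22b and Stx5a had none, and the nearest summit to Gosr2 was 207655 bp away. The tethers Golgb1, which encodes giantin, and Uso1, which encodes p115, had 8.38-fold (5.21 to 12.9) and 4.64-fold (2.51 to 8.00). The Golgb1 summit is also within 1 kb of a start site of Eaf2.

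ARF GTPases recruit the COPI coat once GBF1 has loaded them with GTP. For Arf4 the peak on chromosome 14, 26637987 to 26638297, had 12.6-fold (8.23 to 18.4, 24 reads) and its summit stood 56 bp past a start site, within the 5′ UTR. Arf5 had 9.70-fold (6.46 to 14.1, 26 reads) on chromosome 6, 28423432 to 28423873, shared with Gcc1, a golgin gene. Arf1 had the lowest promoter fold of the 28, 4.12 (2.23 to 7.10, 11 reads), and its interval lay below that of Arf4. Gbf1 had no peak, with the nearest summit 27662 bp away.

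Summits sat close to the start sites. The strongest promoter summits of the 28 genes lay a median of 65 bp from a start site, against 111 bp for all 6100 genes, and 18 of the 28 (64.3%) lay within 100 bp, against 47.2%. Downstream or at the start site were 18 (64.3%), against 59.5% of all genes. The 1 kb limit cut no traffic gene closely. The farthest promoter summit was a second peak of Sec23a at 575 bp (5.97-fold), and the nearest one beyond the limit was a peak in an intron of Arf1, 2018 bp from the start site (8.21-fold). For 3 of the 28 genes (Tmed7, Golgb1 and Arf5) the peak was shared with another protein-coding gene, or 10.7%, against 19.1% of all genes with a promoter peak.

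A distal peak was taken as one between 1 and 50 kb away for which the gene has the nearest protein-coding start site. Such peaks were found at 14 traffic genes (28.0%), against 18% of all genes. A promoter peak was also present at 10 of the 14, against 1685 of the 3941 genes with a distal peak overall in the annotation. The 17 distal peaks had a median fold of 6.54 (4.50 to 43.8), against 6.75 for all 7851 peaks outside promoters.

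The strongest peak assigned to any of the 50 genes was distal. It lay 4843 bp upstream of Mia3 on chromosome 1, 183374083 to 183374693, over which the annotation places no gene, and had a fold of 43.8 (33.8 to 55.8, 63 reads), above the interval of the Mia3 promoter peak (6.91 to 15.8). The next nearest start site, of Taf1a, was 14585 bp away. The other distal peak of Mia3, 9041 bp upstream, had 6.66-fold (3.29 to 12.4, 8 reads). Lman1, weak at its promoter, had distal peaks of 23.2-fold (15.9 to 32.9, 30 reads) 17344 bp upstream and of 16.3-fold (11 to 23.5, 27 reads) 2721 bp upstream of a start site, inside an intron. Both of these intervals lay above that of its promoter peak.

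Tmed9, with no promoter peak, had a distal peak of 19-fold (12.7 to 27.3, 27 reads), 6809 bp upstream of its nearest start site. The peak lay in an intron of Tmed9 and was 305 bp wide, at 55586207 to 55586511 of chromosome 13. Its summit base is repeat-masked in the reference, as are the summits of 4 of the 17 distal peaks and of 42.1% of all peaks outside promoters. The part of read mapping in repeats in its fold was not tested. A summit nearer to Tmed9, 2683 bp from a start site of the gene, had 9.53-fold (6.19 to 14.1, 23 reads) but was not assigned to Tmed9 by the rule. Mia2 had a 9.0-fold peak (4.87 to 15.5) in an intron, 2286 bp downstream of an internal start site of the gene. The other 12 distal peaks had folds of 4.50 to 8.25. Sec16b, Lman2 and Bet1 were, beside Tmed9, the genes with a distal peak alone. Neither kind was found at 18 of the 50 genes, against 13510 of all 21866 genes.

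**Figure D3:**
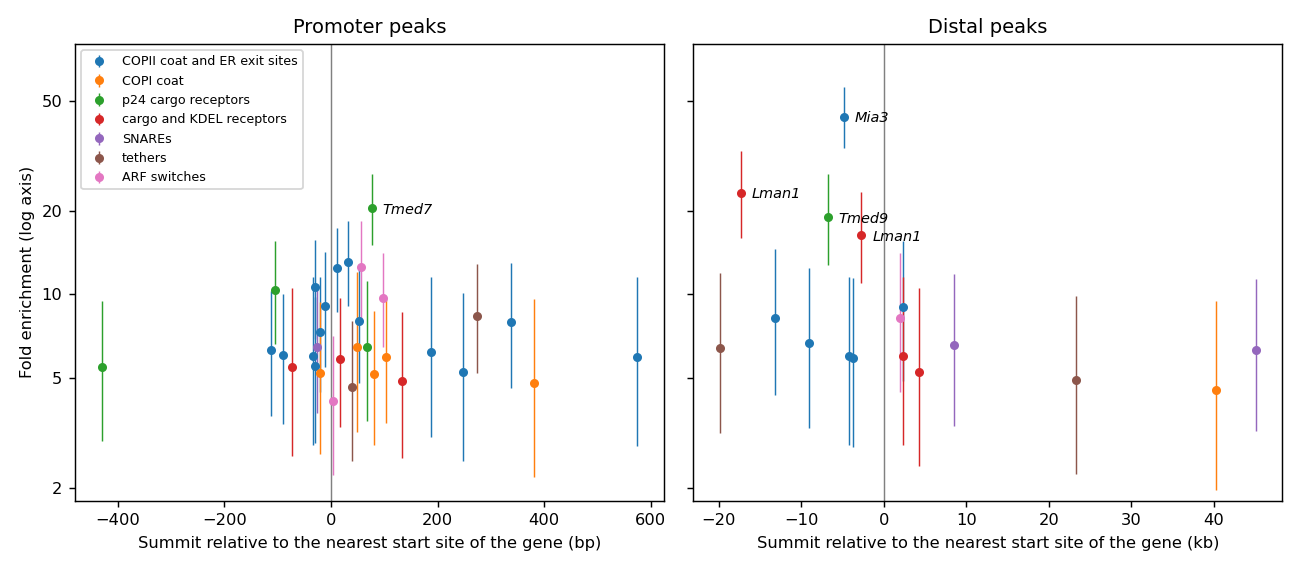
Fold enrichment (log axis) against the position of the summit relative to the nearest start site of the gene, in bp for the 32 promoter peaks and in kb for the 17 distal peaks, with 95% exact Poisson intervals and colours by role. Promoter summits crowd around the start at folds of 4.12 to 20.4, while the distal peak of Mia3 stands highest at 43.8.

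The sequence under the summits was searched on both strands within 50 bp of each summit. The C/EBP-ATF composite element, to which CHOP and ATF4 can bind with C/EBP partners, was searched as TGATGNAAT and was found at no strongest promoter summit of the 28 genes, against 0.729% of all 6306 promoter summits. A shorter form, TGATGNAA, was also absent from the 28, against 1.89% of promoter summits. Both were absent from the 17 distal summits, and TGATGNAAT was found at 3.97% of all 7851 summits outside promoters. The CRE palindrome TGACGTCA was found at none, against 0.856%, and the ER stress element ERSE at none of the 28 and at 0.0% of all promoter summits. The general C/EBP pattern TTNNGNAA was found at 2 of the 28 (Copg1 and Arf5), against 5.46%, the CCAAT box at 2 (Sec23b and Lman1), against 7.53%, and the GC box GGGCGG at 13 (46.4%), against 45.4%. With shares this low in all promoters, 28 genes would hold few matches in any case. The general C/EBP pattern was found at 4 of the 17 distal summits, against 19.5% of all summits outside promoters. These 4 were at Tmed9, Lman1 (the 16.3-fold peak), Arf1 and Copb1. TGATGNAA is contained in TGATGNAAT, and no stretch can be read both as TGACGTCA and, from the same TGACGT, as the element described next. These are matches of letters within a window and do not show which factor was bound there.

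The unfolded protein response element (UPRE) is a sequence to which ATF6, XBP1 and related bZIP factors of the CREB3 family are known to bind. The element was searched here as TGACGTGG or TGACGTGT only, and other forms of it were not searched. Within 50 bp of the strongest promoter summit it was found at 1 of the 28 genes, Sec24d, against 0.428% of all promoter summits. Within 500 bp of the outermost start site, it was found at 15 of the 50 traffic genes (30.0%), against 2.63% of all 21866 genes. Of the 18 matches at these genes, 17 read TGACGTGG, and Mia3 is counted through TGACGTGT alone. Within the genes of CpG ratio 0.6 or more, the element was found at 14 of 40 traffic genes (35.0%), against 3.56% of all genes of that class. In the same windows ERSE was found at 0 of the 50, against 0.165% of all genes, and its variant ERSE-II (ATTGG and CCACG with 1 base between) at 1, Tmed2, against 0.11%. The composite element was found at 0 of the 50, against 2.89%, the CRE palindrome at 3 (Cope, Golgb1 and Gosr2), against 3.34%, and the CCAAT box at 32, against 70.6%. The search of start-site windows was added after the peaks had been tabulated. It reads the genome sequence and not the binding data.

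The element stood beside genes with and without a CHOP promoter peak, at 9 of the 28 traffic genes with one (32.1%) and at 6 of the 22 without (27.3%). Among all 6100 genes with a promoter peak it was found at 4.02%, a higher share than the 2.63% of all 21866 genes. By role, it was found at 5 of 14 COPII genes (Sec23a, Sec24a, Sec24d, Sec16b and Mia3), 3 of 9 COPI genes (Copa, Copb1 and Copb2), 3 of 4 ARF switches (Arf1, Arf4 and Gbf1), 2 of 7 SNAREs (Gosr2 and Stx5a), 1 of 2 tethers (Golgb1), 1 of 7 cargo and KDEL receptors (Kdelr3) and 0 of 7 p24 receptors. At 13 of the 15 genes a match was within 130 bp of the outermost start site, a limit that was not planned in advance. At 6 of the 9 genes with a promoter peak a match lay inside the strongest peak, and at Sec24a it lay inside the weaker of its 2 promoter peaks. Matches so near the start or inside the peak were not counted over all genes, so these counts have no share to be set against.

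The matches at those 7 genes, and at 4 genes without a promoter peak, are shown because the same short element recurs beside genes of different roles. These 4 have a match within 130 bp of the outermost start site. Matches farther out at Copa (308 bp) and Gosr2 (264 bp), also without a promoter peak, are not printed. Where a gene has a second match, the one nearest to its start site is printed. Each is given with 16 bases on either side, from the mm10 reference, 5′ to 3′ on the strand of the gene, with the element in capitals. The matches printed for Gbf1, Kdelr3 and Stx5a read in the opposite direction to the gene, as CCACGTCA.
Sec24d, chr3:123267454-123267493, plus strand: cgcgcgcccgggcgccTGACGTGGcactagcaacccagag
Sec24a, chr11:51756591-51756630, minus strand: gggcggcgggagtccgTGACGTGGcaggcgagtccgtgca
Sec23a, chr12:59011988-59012027, minus strand: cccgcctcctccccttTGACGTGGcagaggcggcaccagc
Mia3, chr1:183369628-183369667, minus strand: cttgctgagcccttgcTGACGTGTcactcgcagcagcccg
Golgb1, chr16:36875190-36875229, plus strand: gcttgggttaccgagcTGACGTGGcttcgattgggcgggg
Arf1, chr11:59228223-59228262, minus strand: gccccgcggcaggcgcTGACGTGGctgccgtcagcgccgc
Arf4, chr14:26638179-26638218, plus strand: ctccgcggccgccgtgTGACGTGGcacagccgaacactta
Sec16b, chr1:157506736-157506775, plus strand: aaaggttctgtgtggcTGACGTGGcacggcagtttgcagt
Gbf1, chr19:46152530-46152569, plus strand: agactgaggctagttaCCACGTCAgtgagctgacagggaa
Kdelr3, chr15:79516362-79516401, plus strand: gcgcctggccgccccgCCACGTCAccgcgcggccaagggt
Stx5a, chr19:8741417-8741456, plus strand: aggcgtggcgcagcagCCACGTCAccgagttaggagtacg

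The CHOP summits were seldom on the element itself. The centre of the nearest match lay 28 bp from the strongest promoter summit at Sec24d, 64 bp at Mia3, 68 bp at Arf4, 74 bp at Copb1, 84 bp at Arf1 and 178 to 736 bp at Sec23a, Golgb1, Copb2 and Sec24a. The summit base of Sec24d is repeat-masked in the reference, the only such promoter summit of the 28. The same element stood beside the 12.5-fold peak of Sec24d, the 4.12-fold peak of Arf1 and at Gbf1, with no peak.

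**Figure D4:**
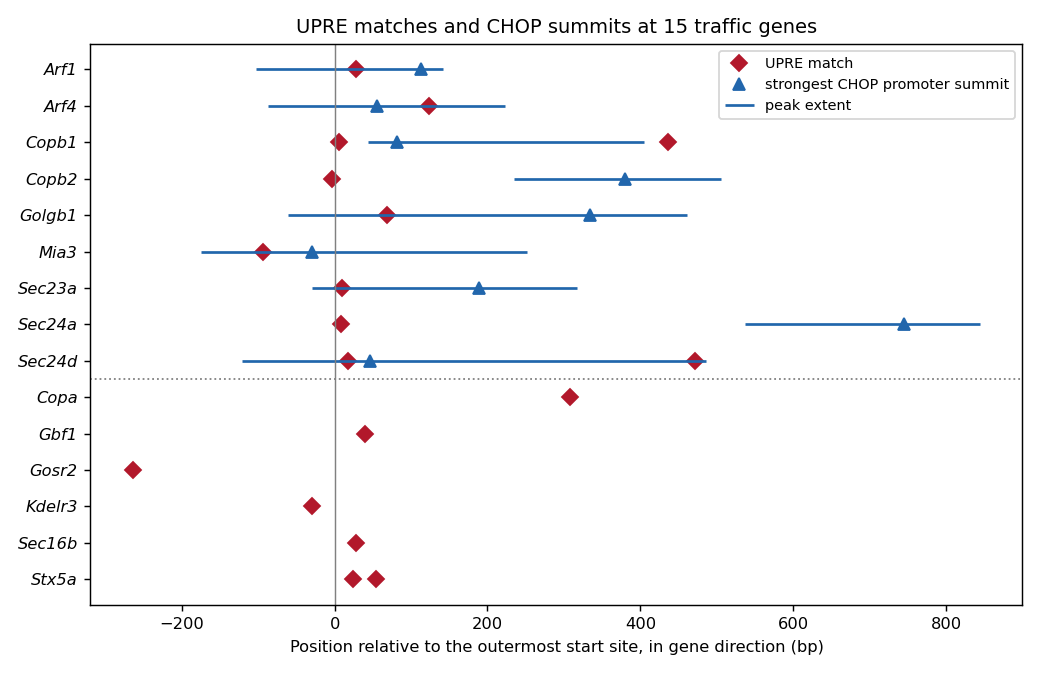
Position of UPRE matches (diamonds), the strongest CHOP promoter summit (triangles) and its peak (lines) relative to the outermost start site, in bp in the direction of the gene, at the 15 traffic genes with a match; genes under the dotted line have no promoter peak. At 13 of the 15 genes, some with and some without a peak, a match lies within 130 bp of the outermost start site. Such nearness was not counted over all genes. At Sec24d alone is the nearest match within 50 bp of the summit.

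Sequence is also shown for 3 of the strongest sites, chosen after their values were seen. Each is given with 50 bases on either side of its summit, 5′ to 3′ on the strand of the gene (mm10), with matches to the GC box in capitals. The Mia2 and Arf4 promoter summits held 2 GC boxes each and no other searched element. The distal summit upstream of Mia3, the strongest of the 50 genes, held none, and is printed without capitals.
Mia2 promoter, chr12:59131483-59131583, plus strand: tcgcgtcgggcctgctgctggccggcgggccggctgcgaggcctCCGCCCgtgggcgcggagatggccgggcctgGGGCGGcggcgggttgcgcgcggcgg
Arf4 promoter, chr14:26638080-26638180, plus strand: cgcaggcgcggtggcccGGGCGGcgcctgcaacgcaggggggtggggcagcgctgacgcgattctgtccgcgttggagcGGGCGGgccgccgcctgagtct
Mia3 distal, chr1:183374346-183374446, minus strand: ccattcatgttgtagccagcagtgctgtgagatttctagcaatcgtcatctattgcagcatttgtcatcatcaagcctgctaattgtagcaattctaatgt

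A wider list of 85 other genes of the route was counted in the same way. Promoter peaks were found at 41 of them (48.2%, Wilson interval 37.9 to 58.7%), against 27.9% of all genes, with a median fold of 7.10. Among all 10192 genes with a CpG ratio of 0.6 or more the share was 51.0%. The 85 genes were not split by that ratio, so the part of base composition in their share was not tested. Golgins and stacking proteins, which tether vesicles and hold the cisternae together, had 9 of 11. ARF and RAB switches of the Golgi had 8 of 14, the TRAPP tethering complex 7 of 14, other COPII genes 5 of 11, the conserved oligomeric Golgi complex 3 of 8, other cargo receptors 4 of 12, and retrograde SNAREs with their fusion factors 5 of 15.

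Distal peaks were found at 18 of the 85 (21.2%), against 18% of all genes. The highest of these were at Tmed8, a p24 gene, with 69.7-fold (56.4 to 85.4, 92 reads), at Cog1, of the oligomeric Golgi complex, with 60.7-fold (48.3 to 75.4, 80 reads), and at Lman2l, a lectin gene, with 16.5-fold (10.5 to 24.8, 21 reads). These 3 peaks were 309 to 318 bp wide with repeat-masked summit bases, and the part of read mapping in repeats in their folds was not tested.

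Among the promoter peaks of the wider list, the 3 of highest fold were at genes for Golgi GTPase switches and fusion. Arfgef2 and Arfgef1, which encode exchange factors for ARF at the trans-Golgi, had 29.3-fold (22.8 to 37.1, 67 reads) and 15.7-fold (11.8 to 20.6, 51 reads). Nsf, the ATPase that takes spent SNARE complexes apart, had 14.7-fold (10.5 to 20.1). Ergic1, a membrane protein of the compartment between ER and Golgi, followed with 12.7-fold (7.61 to 20.2, 16 reads), and its summit, 789 bp downstream of a start site, held a composite element. Rab6a, Gorasp2, Trappc1 and Golga5 had folds of 11.7 to 12.6. The peaks of Rab6a, Gorasp2 and Trappc1 are shared with a neighbouring gene. UPRE matches near the start were found at 6 of the 85 (7.06%), a lower share than the 30.0% of the 50 genes.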

How the data were processed

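The series holds 1 immunoprecipitated liver library (3 pooled mice) and 1 input library; only the peak list of the immunoprecipitated library was read. Per the labels' protocols, reads were aligned to mm10 with Bowtie, filtered with SAMtools 1.9 and Sambamba, repeated reads at one position were discarded, which caps reads per position, and peaks were called with MACS2 2.1.2. The authors deposited for each peak a fold (a ratio over the local background), −log10 p, −log10 q and a score, which is −log10 q times 10 to within 1 and was used only in an alternative. The Bowtie version and total reads are not given in the sources used here, so depth is known at summits alone.

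Reads and background at each summit were solved from fold and −log10 p, assuming the formulas of MACS2 (all 14157 peaks within a tolerance of 0.0001; 1 had a second solution), after a test on simulated data. Intervals hold the background fixed and cover counting error alone, at the position chosen for its height. Sequence was GRCm38.p6 with GENCODE M21 genes. CpG ratio, GC share and UPRE windows used 1001 bp around the outermost start site, and motifs 101 bp around summits. ERSE was CCAAT, then 9 bases, then CCACG. Members and lists were chosen with earlier results of these data known, and no set test was made. Named genes were the 8 of highest promoter fold, the 5 highest distal peaks and all others by role. Python 3.11.15, numpy 2.4.6, pandas 2.3.3, scipy 1.17.1, pysam 0.24.0 and matplotlib 3.10.9 were used.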

Additional observations from a re-analysis of the deposited data

How the results depend on the processing

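The count of 28 traffic genes with a promoter peak stayed between 20 and 28 with limits of 500 bp or 2 kb, −log10 q of at least 5, a fold of at least 5, no top-score or repeat-masked peaks, other start-site sets, nearest-gene assignment or peaks covering a start. It came to 12 when peaks under the median fold were left out. That alternative also gave 6 traffic genes with a distal peak (otherwise 11 to 16, main 14) and 25 of the 85 other traffic genes with a promoter peak (otherwise 32 to 42, main 41); fewer peaks are counted by its construction. The median promoter fold ran from 6.24 to 7.98. Outermost start sites alone lost Lman1 and Mia2, and removal of repeat-masked summits lost Sec24d at promoters and Sec16a, Tmed9 and Ykt6 among distal peaks. Composite, CRE and ERSE matches stayed at 0 at the promoter summits under every alternative run for them. UPRE matches, in alternatives chosen after seeing the data, were found at 13 genes within 250 bp of the start (1.64% of all genes), at 17 within 1 kb (4.20%) and at 17 with any coding start site (3.95%). Folds rest on 4 to 329 reads at the summit over the whole list, so weak peaks of 6 to 10 reads cannot be ranked against each other.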
